A study of Homo sapiens with 6 samples.

Results

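Antisense non-coding RNAs are transcripts named after the gene on the other strand, with the suffix AS and a digit. The members described here are the rows of the deposited table whose symbol ends that way and does not start with LINC or MIR, each set beside the row of its sense gene, whose symbol is the part before the suffix. There were 316 such rows from 303 symbols, of 10191 transcript rows in all; 315 carried a non-coding RefSeq identifier and 1, DPP9-AS1, a coding one. A sense gene was found in the table for 172 of the 316 rows (165 sense symbols), and the sense genes of the other 144 rows were not analysed here. The libraries were made from total RNA of Huh7 cells, a long-established line from a human liver cancer grown in DMEM, taken 1 week after puromycin selection. The knockdown group had 3 libraries from cells carrying a short hairpin RNA against ABL1, a gene for a non-receptor tyrosine kinase, and the scrambled group had 3 libraries from cells carrying a scrambled hairpin; both groups had passed the same selection. The sources used here give neither the hairpin sequence nor the number of hairpins or clones. They also do not state that the 3 libraries of a group came from separate cultures; p-values therefore refer to the spread among these libraries, and that spread may be technical.

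Antisense RNAs can arise from the promoter of the sense gene, which is then transcribed in both directions, or from a start of their own inside or beyond the sense gene. Some act on the chromatin, transcription, splicing or stability of their sense gene, and many have no known role. As a class they are made at low levels, often stay in the nucleus, and many transcripts that leave a promoter upstream are removed quickly by the nuclear RNA exosome, a complex of RNA-degrading enzymes.

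Recovered reads per library ran from 6651413 to 7952645 in the knockdown group and from 7713451 to 10487862 in the scrambled group. Levels are normalized counts, that is, reads multiplied by the scale factor of the library that the authors' values carry. Profiles correlated at 0.984 to 0.988 between libraries of 1 group and at 0.940 to 0.951 between groups, and the groups lay apart on a first principal component that held 69.9% of the variance. The ABL1 transcript NM_007313 had 14, 9 and 9 reads in knockdown libraries, against 88, 64 and 76 reads in scrambled libraries. A second ABL1 row, NM_005157, had 18, 17 and 24 reads in knockdown libraries, against 11, 6 and 11 reads in scrambled libraries, and the sum of both rows fell (log2 change -1.33, limma adjusted p = 0.000116). Summed counts of the 7 hepatocyte markers in the table were 396929 to 442351 in knockdown libraries, against 463852 to 523609 in scrambled libraries; 4 of the 6 tested fell. Of the 6 fibroblast or stellate cell markers tested, 4 rose and 1 fell, with sums of 13259 to 14609 in knockdown libraries and 8912 to 9908 in scrambled libraries. The 3 biliary markers summed to 5668 to 6130 in knockdown libraries and 8241 to 9478 in scrambled libraries, and 2 of them fell. The 4 endothelial ones summed to 125 to 147 in knockdown and 176 to 204 in scrambled libraries, though VWF rose and the other 3 fell. The 2 immune ones summed to 6526 to 7467 in knockdown and 5679 to 6298 in scrambled libraries, and moved in opposite directions. LYZ, nearly all of that sum, rose from a mean of 5997 in scrambled to 6961 in knockdown libraries. LAPTM5 fell from 24.6 in scrambled to 4.12 in knockdown libraries (log2 change -2.39). The part of these shifts in the results on antisense RNAs was not tested.

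The antisense RNAs changed mostly upward after ABL1 knockdown. Of 246 antisense rows tested (237 symbols, mean normalized count at least 10), 68 rose (27.6%) and 18 fell (7.32%) at a limma adjusted p under 0.05, while over all 8600 transcripts tested 24.5% rose and 27.4% fell. The share that changed in either direction, 86 of 246 (35.0%), was below the 51.9% of all transcripts tested. The median log2 change of the antisense rows was 0.28, with an interquartile range from -0.22 to 0.90, against 0.00 (0.0018) for all transcripts, and 162 of the 246 had a log2 change above 0. In 123 antisense rows (50%) the 3 knockdown values and the 3 scrambled values did not overlap, against 58.9% of all transcripts tested. At least a 2-fold rise was seen in 48 of the 68 that rose, and 8 of the 18 that fell did so by 2-fold or more. In these bulk libraries, fewer cells of a type and less RNA per cell cannot be told apart.

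The excess of rises over falls held under each scaling, but its size did not. With libraries scaled to equal totals, which moved the median of all transcripts to 0.17, 92 antisense rows rose and 11 fell with a median log2 change of 0.45, and over all transcripts 2967 rose and 1699 fell. With quantile normalization 65 rose and 20 fell, with a median of 0.19. The 70 rows below the count minimum had means of 1.94 to 9.995, and 51 of them had a higher knockdown mean, as did 214 of all 316 rows. Among the tested rows, 36 had a group mean under 10: 26 in the scrambled group, of which 15 rose, and 10 in the knockdown group, of which 3 fell. A row that passes the minimum through only 1 of the groups had to differ, so for those rows the values and the log2 change are given below as a description. For them, p-values are given only where a call was lost in another fit. The counts of rows and pairs that changed still include them. With a minimum mean of 50, 24 of 78 antisense rows rose and 8 fell, while 1634 of all 6097 transcripts rose and 2020 fell.

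Other non-coding RNAs also rose more often than they fell. Of 167 LINC rows tested, which are long intergenic RNAs, 64 rose and 13 fell with a median log2 change of 0.48. Of 756 other non-coding rows tested, 190 rose and 86 fell with a median of 0.22. Of 7432 coding rows tested, 1784 rose and 2238 fell with a median of -0.03. Antisense rows had few reads, with a median mean count of 28.6 against 271 for coding rows, so the classes were also read within bands of abundance. At a mean count of 20 to 50, 34.9% of antisense rows rose and 8.43% fell, against 18.7% and 19.8% of coding rows. At 50 to 100, 29.3% of antisense rows rose and 7.32% fell, against 26.6% and 27.3% of coding rows. At 100 to 1000, 32.4% of antisense rows rose and 13.5% fell, against 26.2% and 32.6% of coding rows. At 10 to 20, 17.6% of antisense rows rose and 3.53% fell, against 15.8% and 13.7% of coding rows. The differences between classes were not tested.

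**Figure D1:**
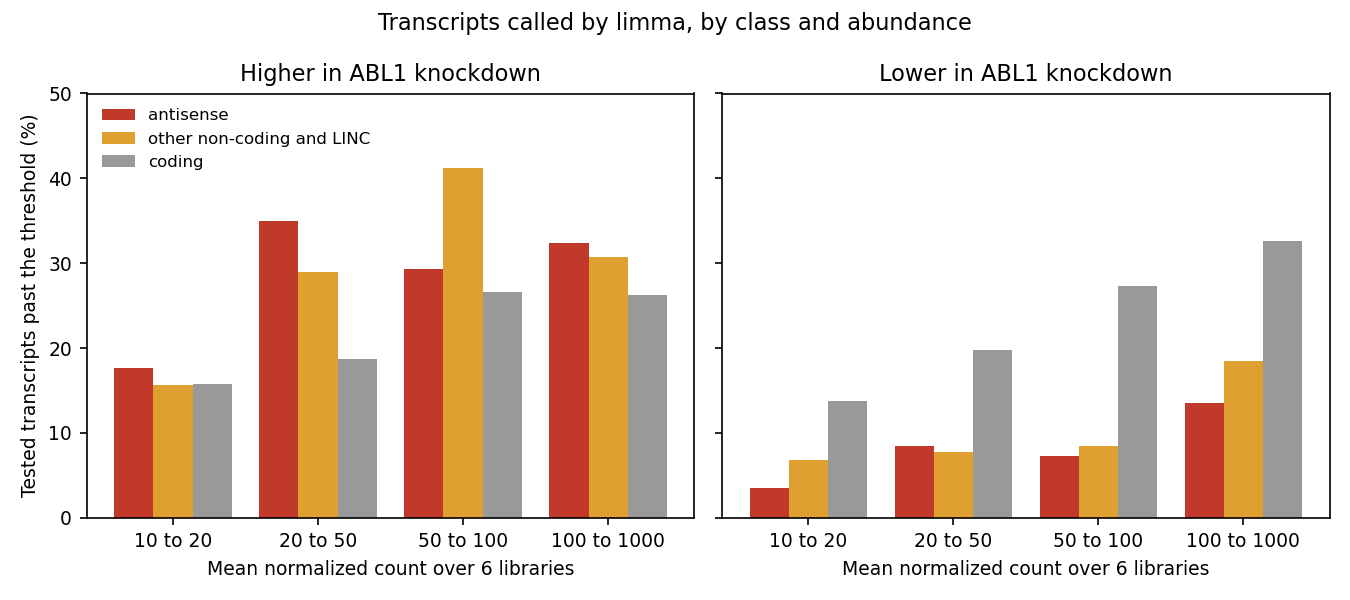
Percent of tested transcripts (vertical axis) that rose (left) or fell (right) after ABL1 knockdown, in 4 bands of mean normalized count over the 6 libraries (horizontal axis), for antisense RNAs, other non-coding RNAs with LINC rows, and coding transcripts. In each band a smaller share of antisense than of coding transcripts fell (3.53% to 13.5% against 13.7% to 32.6%), and at 50 to 100 a smaller share of antisense rows (29.3%) than of other non-coding and LINC rows (41.2%) rose.

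The largest rises were of RNAs with few reads in scrambled cells. LGALS8-AS1, opposite the gene of the sugar-binding protein galectin-8, had normalized counts of 19.6, 18.1 and 24.8 in knockdown libraries, against 1.67, 0 and 0.938 in scrambled libraries. Those scrambled values rest on 3 reads in all against 60 in the knockdown libraries, a ratio of 22.0 with an exact 95% interval of 7.16 to 109 that covers counting error only. The fitted log2 change of 3.64 depends on the 1 added to each count. This single-exon transcript of 1430 bases lies on the minus strand of chromosome 1 at 236523071 to 236524500 (GRCh38), and its exon shares 673 bases with LGALS8 exons. RHOXF1-AS1, opposite a homeobox gene of the X chromosome, had 24.5, 37.3 and 28.9 in knockdown libraries, against 0.834, 2.24 and 5.63 in scrambled libraries (log2 change 3.18). RBPMS-AS1, opposite the gene of an RNA-binding protein, had 42.1, 75.7 and 67.1 in knockdown libraries, against 11.7, 3.36 and 4.69 in scrambled libraries (log2 change 3.16). In all 3 RNAs every knockdown value lay above every scrambled value, and all 3 had a scrambled mean under 10.

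Further rises followed. RNF139-AS1, next to the gene of a ubiquitin ligase of the endoplasmic reticulum, had 34.2, 32.8 and 34.04 in knockdown libraries, against 5.002, 5.6 and 7.51 in scrambled libraries (log2 change 2.32), with the knockdown values close together and above the scrambled ones, whose mean was also under 10. LPP-AS2, which starts near the gene of a LIM domain protein of cell adhesions, had 76.3, 75.7 and 100.1 in knockdown libraries, against 12.5, 15.7 and 26.3 in scrambled libraries (log2 change 2.20, SE 0.29, limma adjusted p = 3.83e-05). ATP6V0E2-AS1, next to the gene of a subunit of the vacuolar proton pump, had 55.8, 62.2 and 61.9 in knockdown libraries, against 10.8, 12.3 and 16.9 in scrambled libraries (log2 change 2.11, SE 0.27, limma adjusted p = 3.27e-05). The groups were apart in both. RFX3-AS1, named after a transcription factor of cilia genes, had 38.1, 37.3 and 49.5 in knockdown libraries, against 10.005, 10.1 and 10.3 in scrambled libraries (log2 change 1.93, SE 0.29, limma adjusted p = 0.000138). SGMS1-AS1, named after a sphingomyelin synthase gene, had 41.1, 40.7 and 41.3 in knockdown libraries, against 20.01, 8.97 and 8.44 in scrambled libraries (log2 change 1.74, SE 0.35, limma adjusted p = 0.00108). Their knockdown values also all exceeded the scrambled ones, as did those of JAKMIP2-AS1, THAP7-AS1 and ZNF571-AS1. These 3 had log2 changes of 2.01, 1.99 and 1.89, and JAKMIP2-AS1 and ZNF571-AS1 had a scrambled mean under 10; JAKMIP2-AS1, for instance, had 20.5, 27.1 and 13.4 in knockdown libraries, against 1.67, 7.85 and 4.69 in scrambled libraries.

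The falls were fewer and smaller, and 8 of them reached 2-fold. RAMP2-AS1, next to the gene of a co-receptor for adrenomedullin, had 8.8, 5.65 and 6.19 in knockdown libraries, against 25.8, 22.4 and 18.8 in scrambled libraries (log2 change -1.58). USP2-AS1, next to a deubiquitinase gene, had 8.8, 7.91 and 2.06 in knockdown libraries, against 16.7, 13.4 and 23.5 in scrambled libraries (log2 change -1.51), and MCM8-AS1, which overlaps a DNA helicase gene, had 10.8, 28.3 and 14.4 in knockdown libraries, against 40.9, 60.5 and 42.2 in scrambled libraries (log2 change -1.46, SE 0.35, limma adjusted p = 0.00356). In each the groups did not overlap, and the knockdown means of RAMP2-AS1 and USP2-AS1 were under 10. TMEM161B-AS1 had 18.6, 16.95 and 14.4 in knockdown libraries, against 37.5, 62.8 and 33.8 in scrambled libraries (log2 change -1.33, SE 0.30, limma adjusted p = 0.0027). ACVR2B-AS1, which starts inside the gene of an activin receptor, had 16.6, 15.8 and 18.6 in knockdown libraries, against 48.4, 31.4 and 31.9 in scrambled libraries (log2 change -1.06, SE 0.29, limma adjusted p = 0.00792). Both were lower in every knockdown library than in any scrambled one. OTUD6B-AS1 had 2 rows, and both fell, with log2 changes of -1.20 and -0.80. LIN28B-AS1 was the exception among the falls, since its groups overlapped: 11.7, 4.52 and 6.19 in knockdown libraries, against 11.7, 23.5 and 25.3 in scrambled libraries (log2 change -1.34), with a knockdown mean under 10 as well. It lost its call when any of 4 of the 6 libraries was left out, with limma adjusted p from 0.0552 to 0.107; USP2-AS1 lost it without knockdown library 3 and without scrambled library 1 or 3 (limma adjusted p 0.0548 to 0.101).

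**Figure D2:**
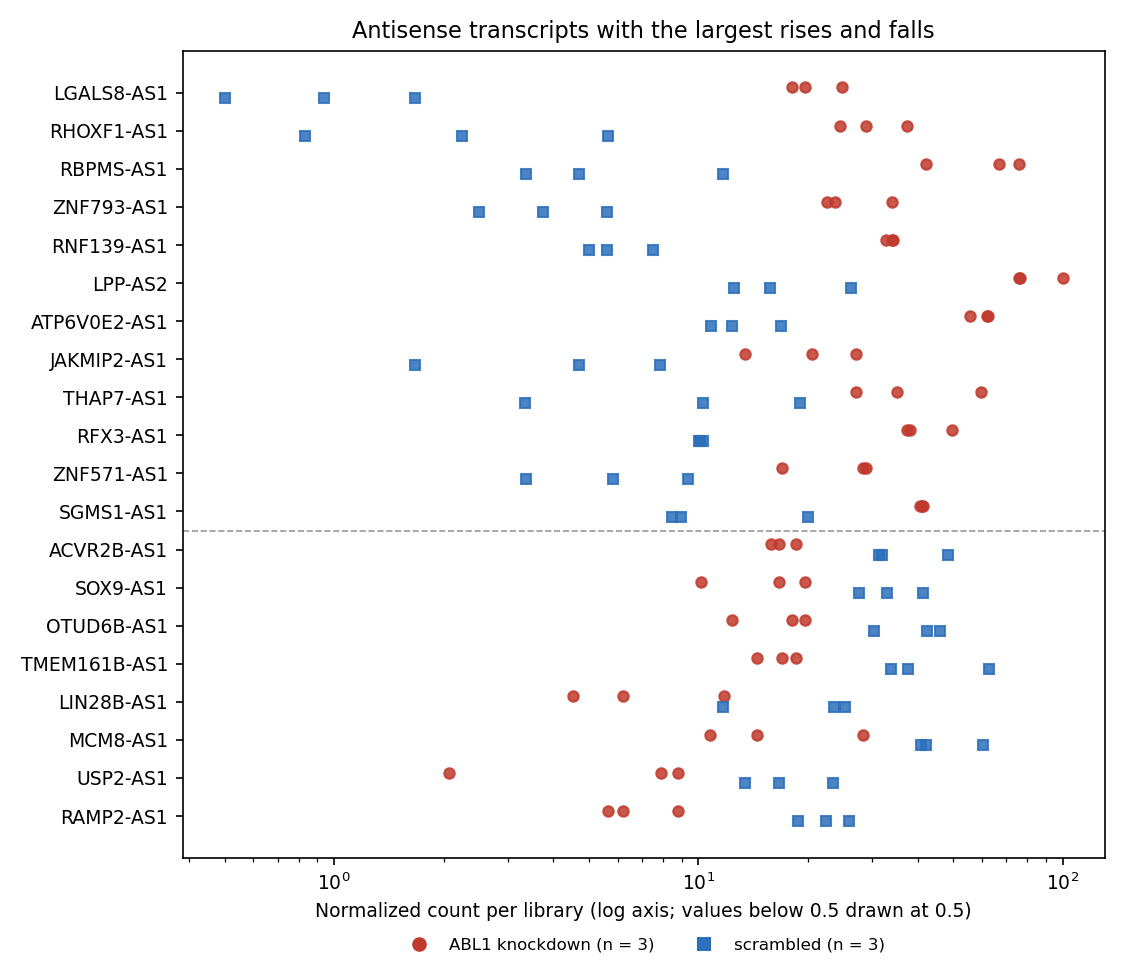
Normalized count in each library (horizontal log axis, values below 0.5 drawn at 0.5) of the 12 antisense RNAs with the largest rises, above the dashed line, and the 8 that fell at least 2-fold, below it; each point is 1 library, 3 per group. Knockdown and scrambled points are apart in every row except LIN28B-AS1, where 1 knockdown value and 1 scrambled value are both 11.7 after rounding.

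The most abundant antisense RNAs moved less, and in both directions. OIP5-AS1, the conserved RNA also called cyrano in other vertebrates, had the highest mean count and fell: 659, 728 and 645 in knockdown libraries, against 952, 896 and 821 in scrambled libraries (log2 change -0.39, SE 0.09, limma adjusted p = 0.00288). That fall missed the threshold with libraries scaled to equal totals (log2 change -0.22, limma adjusted p = 0.06). ARHGAP5-AS1, which starts 174 bases upstream of its sense gene, had 999, 935 and 866 in knockdown libraries, against 384, 434 and 451 in scrambled libraries (log2 change 1.14, SE 0.10, limma adjusted p = 9.64e-07), and every knockdown value lay above every scrambled one. UBA6-AS1, next to the gene of a ubiquitin-activating enzyme, had 356, 347 and 284 in knockdown libraries, against 171, 164 and 191 in scrambled libraries (log2 change 0.90, SE 0.13, limma adjusted p = 7.95e-05). LBX2-AS1, next to a homeobox gene, had 399, 330.0 and 384 in knockdown libraries, against 216, 151 and 236 in scrambled libraries (log2 change 0.90, SE 0.16, limma adjusted p = 0.000409). Both sets of knockdown values stood wholly above the scrambled ones. PTOV1-AS1 also rose (log2 change 0.41, SE 0.12, limma adjusted p = 0.0103). ADORA2A-AS1, opposite an adenosine receptor gene, had 262, 229 and 236 in knockdown libraries, against 399, 439 and 418 in scrambled libraries in its more abundant row (log2 change -0.79, SE 0.10, limma adjusted p = 4.76e-05), with no overlap. The other row of ADORA2A-AS1 had no call (log2 change -0.34, limma adjusted p = 0.115). MAPKAPK5-AS1 fell slightly (log2 change -0.33, limma adjusted p = 0.0278), a call lost without knockdown library 1 or 2 or scrambled library 2 (limma adjusted p 0.0655 to 0.124) and with equal totals (0.264) or quantile normalization (0.0695). EPB41L4A-AS1, CCDC183-AS1 and WAC-AS1 did not pass the test, with log2 changes of -0.05, 0.12 and -0.28.

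Several antisense RNAs of genes for liver transcription factors were read out because of the tissue; they were chosen after their values were seen. PROX1-AS1, opposite the gene of a homeobox factor of liver development, had 162, 166 and 154 in knockdown libraries, against 77.5, 71.7 and 90.1 in scrambled libraries (log2 change 1.01, SE 0.15, limma adjusted p = 0.000128), while PROX1 itself had no call (log2 change 0.13, SE 0.18, limma adjusted p = 0.573). Every knockdown value of PROX1-AS1 exceeded every scrambled value. HNF4A-AS1, GATA6-AS1 and CEBPB-AS1, named after 3 further liver transcription factors, did not pass the test, with log2 changes of -0.26, -0.04 and 0.99. Among all antisense rows outside the rule for naming, PROX1-AS1 included, 39 rose by 0.49 to 1.71 and 6 fell by 0.43 to 0.82 on the log2 scale, and 157 had no call.

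The sense genes rose and fell in nearly equal numbers. Of 150 sense rows tested, 32 rose (21.3%), 34 fell (22.7%) and 84 had no call, with a median log2 change of 0.07; the 44% that changed compare with 51.9% of all transcripts tested. Both transcripts were tested in 118 pairs, with 113 sense genes. In 19 of these pairs both changed: 10 pairs rose together, 5 fell together, and in 4 the antisense RNA rose while the sense transcript fell. The number of such pairs was 10 to 13 when 1 library was left out, and 32 with libraries scaled to equal totals. Taken singly, 35.0% of the tested antisense rows and 44% of the tested sense rows changed. The number of pairs that these shares alone would give was not computed, so the 19 are a count and not a sign of joint change. In 7 of the 19, those of ZNF793, EPHA1, PAN3, NUTM2B, RAMP2, USP2 and LIN28B, a transcript had a group mean under 10, so these pairs are a description. No pair showed a fall of the antisense RNA with a rise of the sense transcript. The antisense RNA rose with no call for its sense gene in 18 pairs and fell with none in 4, whereas 15 sense genes rose and 15 fell with no call for the antisense RNA; in 47 pairs neither changed. The 2 log2 changes had the same sign in 73 pairs and opposite signs in 45. Across the 118 pairs the Spearman correlation was 0.18 and the Pearson correlation 0.24, as a description only, since both changes come from the same 6 libraries.

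**Figure D3:**
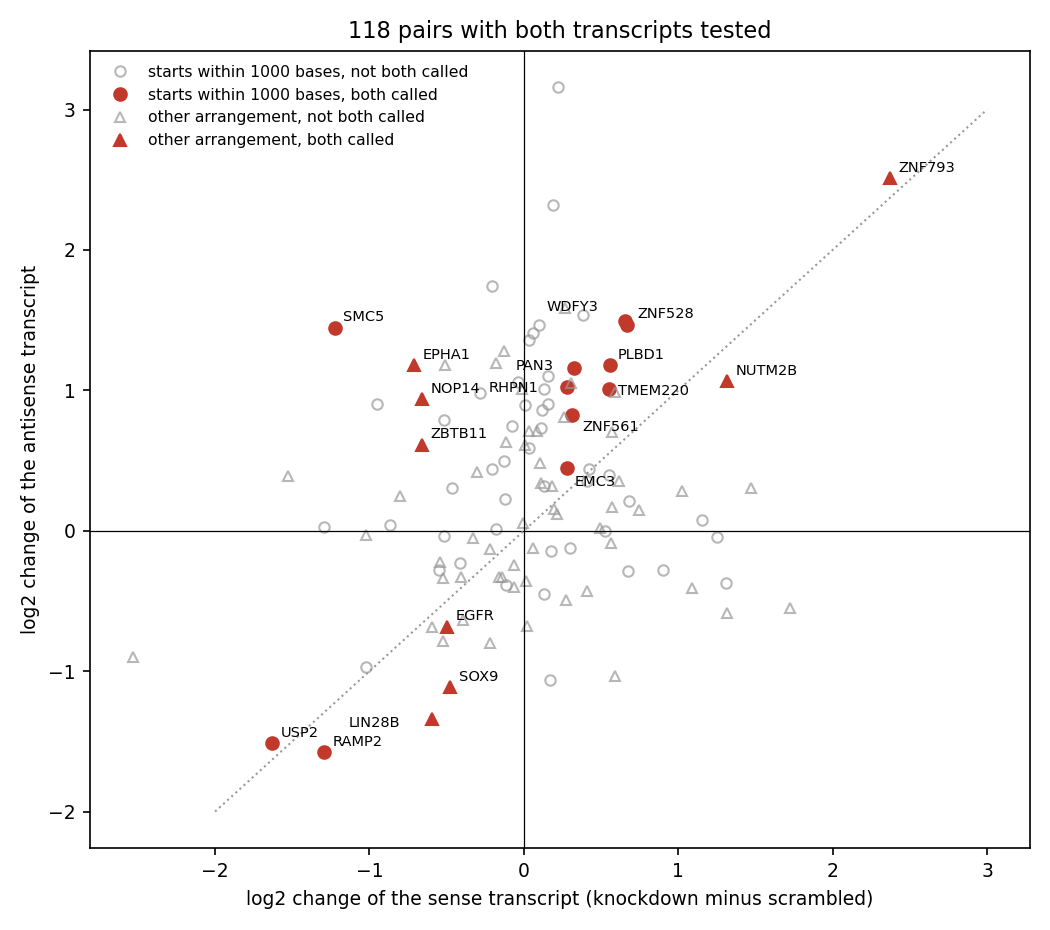
Log2 change of the sense transcript (horizontal) against that of its antisense RNA (vertical) in 118 pairs; circles are pairs whose starts lie within 1000 bases, triangles other arrangements, and filled symbols with names the 19 pairs in which both were called. The dotted line marks equal change; 10 named pairs lie in the upper right, 5 in the lower left, 4 in the upper left and none in the lower right.

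The counts of an antisense RNA and its sense gene were also set against each other within each library, as the log2 difference of the 2 counts with 1 added to each. This antisense-to-sense ratio was higher in every knockdown library than in any scrambled library in 41 pairs, lower in 17, and overlapped in 60, with a median shift of 0.21 and an interquartile range from -0.28 to 0.84. The ratios were thus apart in 49.2% of pairs, and the counts of single transcripts were apart in 58.9% of all tested. The share for ratios of unrelated transcripts was not computed. Pairs with a group mean under 10 are included. With 3 libraries against 3, the exact two-sided permutation test cannot go below p = 0.1. Per kilobase of exon, and over all 6 libraries, the antisense RNA had a median normalized count of 24.9 and the sense transcript one of 85.9 in 113 pairs with both lengths. The antisense level per kilobase was higher than the sense level in 36 of these pairs, and the median pair had 33.5% of the sense level. The sense level here is that of 1 transcript row, not of the whole gene. Some of these rows had few reads, such as INTS6 with a mean count of 14.3 and EPB41L4A with 28.5, where the antisense RNA had the higher level.

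Among the pairs with both transcripts called, the SMC5 pair had the largest shift of the ratio. SMC5 encodes a core subunit of the SMC5/6 complex, which keeps chromosomes intact during repair and replication. SMC5-AS1 lies on chromosome 9 at 70193997 to 70258866, minus strand, and shares no exon base with SMC5 on the plus strand. SMC5-AS1 had 46.95, 59.9 and 40.2 in knockdown libraries, against 20.01, 19.1 and 13.1 in scrambled libraries (log2 change 1.45, SE 0.28, limma adjusted p = 0.000918). SMC5 had 421, 522 and 401 in knockdown libraries, against 1057, 1005 and 1062 in scrambled libraries (log2 change -1.22, SE 0.10, limma adjusted p = 1.06e-06). The groups were apart for both transcripts, in opposite directions. The ratio was -3.14, -3.10 and -3.29 in knockdown libraries, against -5.65, -5.65 and -6.23 in scrambled libraries on the log2 scale, a shift of 2.67 (exact permutation p = 0.1).

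The pairs of EPHA1, NOP14 and ZBTB11 also had a rising antisense RNA with a falling sense transcript. NOP14-AS1 shares 371 bases of exon with NOP14, which encodes a factor of small ribosomal subunit assembly. It had 268, 238 and 304 in knockdown libraries, against 112, 148 and 166 in scrambled libraries (log2 change 0.94, SE 0.16, limma adjusted p = 0.000342), and NOP14 had 31.3, 29.4 and 33.01 in knockdown libraries, against 57.5, 38.1 and 56.3 in scrambled libraries (log2 change -0.66, SE 0.24, limma adjusted p = 0.0367). The NOP14 values did not overlap, but the call was lost in each fit without 1 library other than scrambled library 2 (limma adjusted p 0.0549 to 0.127) and with equal totals (0.105). ZBTB11-AS1, which shares 891 bases of exon with the zinc finger gene ZBTB11, had 55.8, 63.3 and 85.6 in knockdown libraries, against 45.02, 41.5 and 44.1 in scrambled libraries (log2 change 0.61, SE 0.22, limma adjusted p = 0.0301). ZBTB11 had 341, 349 and 294 in knockdown libraries, against 509, 475 and 572 in scrambled libraries (log2 change -0.66, SE 0.11, limma adjusted p = 0.000287). Neither ZBTB11 transcript overlapped between groups. ZBTB11-AS1 lost its call without knockdown library 3 or any 1 scrambled library (limma adjusted p 0.052 to 0.143). EPHA1-AS1, which starts inside an ephrin receptor gene and runs on past the start of that gene, had 19.6, 18.1 and 19.6 in knockdown libraries, against 7.5, 13.4 and 4.69 in scrambled libraries (log2 change 1.18, with a scrambled mean under 10), and EPHA1 had 36.2, 42.95 and 59.8 in knockdown libraries, against 90.04, 70.6 and 65.7 in scrambled libraries (log2 change -0.71, SE 0.23, limma adjusted p = 0.0212). Here too the groups were apart for both transcripts. EPHA1-AS1 lost its call in each fit without 1 library other than scrambled library 2 (limma adjusted p 0.0617 to 0.11), and EPHA1 without knockdown library 1 or 2 or scrambled library 1 and with equal totals (0.0528 to 0.0894). The ratio shifted by 1.89 for EPHA1, 1.59 for NOP14 and 1.27 for ZBTB11, without overlap between groups (exact permutation p = 0.1 for each).

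The 10 pairs that rose together came next, and in all but the NUTM2B pair the antisense RNA moved further than the sense transcript. The pair ZNF793-AS1 and ZNF793, a zinc finger gene of chromosome 19, is described first. ZNF793-AS1 had 22.5, 23.7 and 34.04 in knockdown libraries, against 2.5, 5.6 and 3.75 in scrambled libraries (log2 change 2.51, with a scrambled mean under 10), and ZNF793 had 97.8, 119.8 and 92.8 in knockdown libraries, against 15.01, 24.7 and 18.8 in scrambled libraries (log2 change 2.37, SE 0.24, limma adjusted p = 4.69e-06). The shift of their ratio, 0.14, was small and the groups overlapped in it. ZNF528-AS1 had 52.8, 75.7 and 64.99 in knockdown libraries, against 23.3, 22.4 and 21.6 in scrambled libraries (log2 change 1.47, SE 0.23, limma adjusted p = 0.000214), and ZNF528, another zinc finger gene of that chromosome, had 126, 166 and 148 in knockdown libraries, against 91.7, 93.03 and 89.1 in scrambled libraries (log2 change 0.67, SE 0.15, limma adjusted p = 0.00286). WDFY3-AS2 had 66.5, 96.1 and 59.8 in knockdown libraries, against 37.5, 22.4 and 18.8 in scrambled libraries (log2 change 1.49, SE 0.29, limma adjusted p = 0.000866), and WDFY3, which encodes an adaptor of selective autophagy, had 1032, 1015 and 1209 in knockdown libraries, against 735, 613 and 716 in scrambled libraries (log2 change 0.66, SE 0.10, limma adjusted p = 0.000137). PLBD1-AS1 had 28.4, 31.6 and 27.9 in knockdown libraries, against 12.5, 14.6 and 10.3 in scrambled libraries (log2 change 1.18, SE 0.30, limma adjusted p = 0.00588), and PLBD1, a phospholipase B domain gene, had 1652, 1554 and 1595 in knockdown libraries, against 968, 1214 and 1095 in scrambled libraries (log2 change 0.56, SE 0.09, limma adjusted p = 0.000222). None of these 8 transcripts overlapped between groups.

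Smaller joint rises were seen for ZNF561, PAN3, RHPN1, TMEM220, EMC3 and NUTM2B. The antisense changes were 0.83 for ZNF561-AS1, 1.16 for PAN3-AS1, 1.02 for RHPN1-AS1, 1.01 for 1 row of TMEM220-AS1, 0.45 for EMC3-AS1 and 1.06 for 1 row of NUTM2B-AS1. The other row of TMEM220-AS1 had no call (log2 change 0.39, limma adjusted p = 0.417). The sense changes were 0.31 for ZNF561, 0.32 for PAN3 (a subunit of a poly(A)-removing enzyme), 0.28 for RHPN1, 0.55 for TMEM220, 0.28 for EMC3 (a subunit of a membrane protein insertion complex) and 1.32 for NUTM2B. PAN3-AS1 and this NUTM2B-AS1 row had scrambled means under 10. Every one of these 6 pairs had a transcript that lost its call when 1 of several libraries was left out: ZNF561 in 5 of the 6 such fits (limma adjusted p 0.0638 to 0.157), PAN3 in 4 (0.0501 to 0.114), RHPN1 in 3 (0.0899 to 0.135), TMEM220-AS1 in 3 (0.0703 to 0.0922), EMC3-AS1 in 4 (0.0627 to 0.12) and NUTM2B-AS1 in 5 (0.0683 to 0.121). NUTM2B-AS1 also belongs to a family of near-identical copies, so its reads may be split between loci. Summed over its 2 rows, its log2 change was 0.00 (-0.0043, limma adjusted p = 0.991).

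The 5 pairs that fell together were those of RAMP2, USP2, EGFR, SOX9 and LIN28B, and in the RAMP2, USP2 and LIN28B pairs the antisense RNA had a knockdown mean under 10, so its fall is a description. RAMP2, whose product forms the adrenomedullin receptor with the calcitonin receptor-like protein, had 40.1, 47.5 and 28.9 in knockdown libraries, against 90.9, 106 and 88.2 in scrambled libraries (log2 change -1.30, SE 0.22, limma adjusted p = 0.000331), beside the fall of RAMP2-AS1 given above. USP2 had 3.91, 7.91 and 7.22 in knockdown libraries, against 21.7, 15.7 and 27.2 in scrambled libraries (log2 change -1.63), with every knockdown value under every scrambled one and a knockdown mean under 10. EGFR-AS1, which lies inside the epidermal growth factor receptor gene and shares 186 bases with its exons, had 161, 162 and 161 in knockdown libraries, against 252, 261 and 266 in scrambled libraries (log2 change -0.68, SE 0.11, limma adjusted p = 0.000281). EGFR had 1225, 1152 and 1181 in knockdown libraries, against 1662, 1677 and 1676 in scrambled libraries (log2 change -0.50, SE 0.07, limma adjusted p = 9.23e-05). Both EGFR transcripts were lower in every knockdown library, and their spread within groups was small. SOX9, a transcription factor of bile duct and progenitor cells and 1 of the 3 biliary markers, had 2909, 2818 and 3225 in knockdown libraries, against 4309.6, 3662 and 4518 in scrambled libraries (log2 change -0.48, SE 0.09, limma adjusted p = 0.00067), and SOX9-AS1 had 16.6, 10.2 and 19.6 in knockdown libraries, against 27.5, 41.5 and 32.8 in scrambled libraries (log2 change -1.11, SE 0.33, limma adjusted p = 0.0122). LIN28B, an RNA-binding protein that blocks the maturation of let-7 microRNAs, had 3095, 3213 and 3081 in knockdown libraries, against 4693, 4498 and 5011 in scrambled libraries (log2 change -0.60, SE 0.07, limma adjusted p = 1.57e-05). The SOX9-AS1 call was lost without scrambled library 2 (limma adjusted p = 0.0521). The antisense-to-sense ratio fell without overlap between groups in the EGFR and SOX9 pairs, by 0.19 and 0.64, and overlapped in the RAMP2, USP2 and LIN28B pairs.

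**Figure D4:**
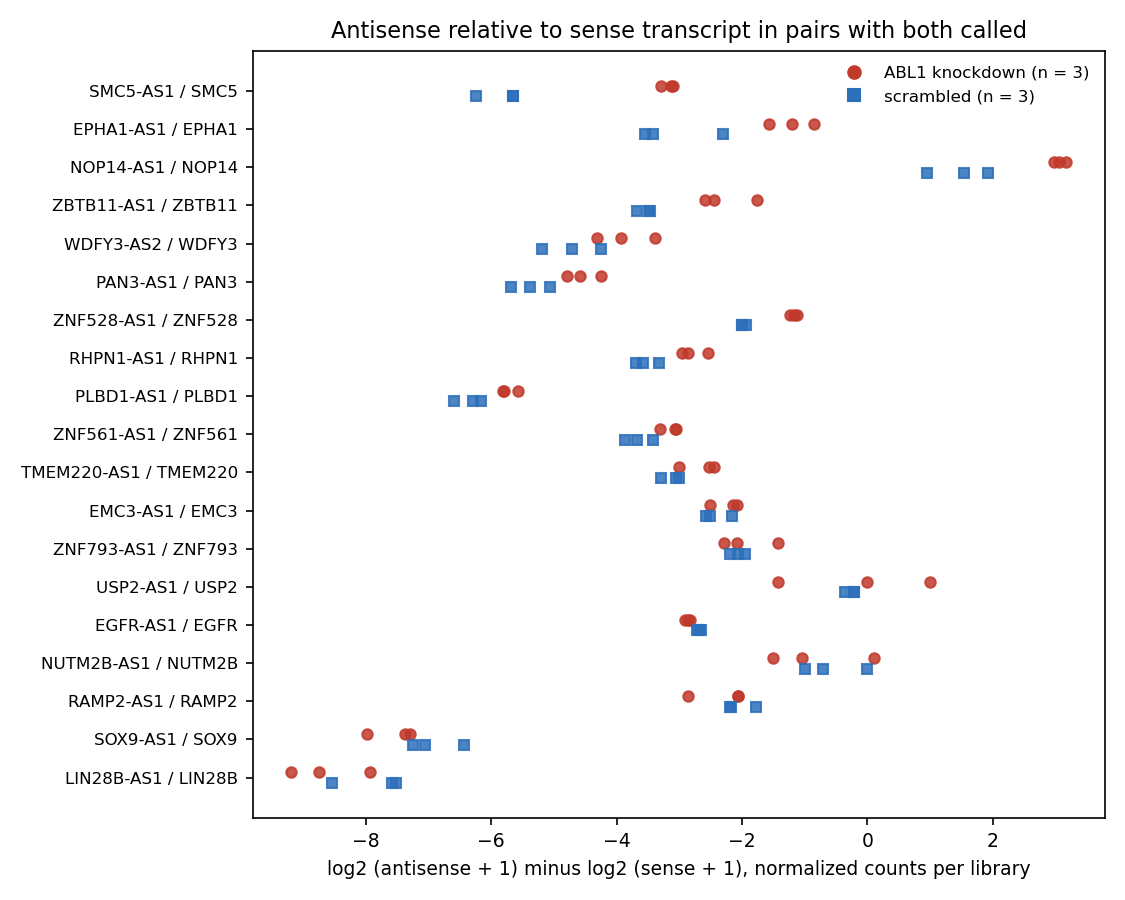
Log2 antisense count minus log2 sense count, each with 1 added (horizontal axis), in each of the 3 knockdown and 3 scrambled libraries for the 19 pairs in which both transcripts changed, ordered by the shift. The SMC5 pair at the top moved by 2.67 and the LIN28B pair at the bottom by -0.74; points above 0, as for NOP14-AS1 in all 6 libraries, mark a higher count on the antisense row than on the sense row, with no correction for length.

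The commonest arrangement was a start close to that of the sense gene. Of 309 rows that could be placed with their sense gene in the GENCODE 29 annotation of GRCh38, all lay on the opposite strand. The start lay within 1000 bases of the sense start in 163 rows, upstream in 106 of them at a median of 143.5 bases, and downstream in 57. A further 96 shared exon bases with the sense gene, 31 overlapped its span without a shared exon, and 19 did not overlap it. Of 131 tested rows with nearby starts, 43 rose and 10 fell with a median log2 change of 0.36. Of 68 tested rows that shared exons without a nearby start, 14 rose and 4 fell with a median of 0.14, and of 25 that overlapped without a shared exon, 6 rose and 1 fell with a median of 0.63. Of the 18 tested rows with no overlap, 4 rose and 3 fell, with a median of 0.17. Of 57 pairs with nearby starts and both transcripts tested, 34 changed with the same sign, 8 rose together, 2 fell together and 1, SMC5, moved apart. No difference between these arrangements was tested.

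Shared exon bases bear on what the counts can show. The sources used here do not give the strand setting of the authors' counting, and without it, reads of a sense transcript cannot be told apart from reads of an antisense RNA over the same bases. In all, 176 of the 316 rows shared exon bases with their sense gene, at a median of 15.6% of the antisense exon bases, and 12 rows shared most of theirs. Rises outnumbered falls with and without such bases: 33 of 139 tested rows with shared bases rose and 8 fell, and 34 of 103 without rose and 10 fell. The 103 include 25 rows that overlap the span of the sense gene, where reads of unspliced sense RNA may enter the count too. Changes had the same sign in 42 of 67 pairs with shared bases and in 31 of 50 without. The Spearman correlation of antisense and sense log2 changes was 0.27 in the pairs with shared bases and 0.07 in those without. These values are a description, and the difference was not tested.

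Where starts lie close together, the DNA between them lies before one transcript or both, and 4 such windows are shown because each held both starts of a pair with a changed antisense RNA. The first 3 are from pairs in which both transcripts changed and whose RefSeq window held both starts. The fourth, EXOC3, is an example of a changed antisense RNA with no call for the sense gene. It was not chosen by rank over all such pairs. Larger antisense changes with no call for the sense gene occurred in pairs whose windows are not shown, such as 1.74 for SGMS1-AS1. EXOC3 encodes a subunit of the exocyst, a tether for secretory vesicles. EXOC3-AS1 had 66.5, 47.5 and 64.99 in knockdown libraries, against 20.01, 23.5 and 18.8 in scrambled libraries (log2 change 1.47, SE 0.25, limma adjusted p = 0.000322), and EXOC3 had 737, 721 and 779 in knockdown libraries, against 712, 714 and 661 in scrambled libraries (log2 change 0.10, SE 0.08, limma adjusted p = 0.334). The groups were far apart for EXOC3-AS1, while for EXOC3 they were apart only narrowly. The windows are RefSeq promoter sequences of GRCh38.p14, 250 bases before to 50 after the sense start, written 5′ to 3′ on the strand of the sense gene. Capitals mark the bases from the antisense start to the sense start. They span chr9:70258728-70259027 (plus strand) for SMC5, chr19:52397599-52397898 (plus strand) for ZNF528, chr19:9621183-9621482 (minus strand) for ZNF561 and chr5:442926-443225 (plus strand) for EXOC3.
SMC5: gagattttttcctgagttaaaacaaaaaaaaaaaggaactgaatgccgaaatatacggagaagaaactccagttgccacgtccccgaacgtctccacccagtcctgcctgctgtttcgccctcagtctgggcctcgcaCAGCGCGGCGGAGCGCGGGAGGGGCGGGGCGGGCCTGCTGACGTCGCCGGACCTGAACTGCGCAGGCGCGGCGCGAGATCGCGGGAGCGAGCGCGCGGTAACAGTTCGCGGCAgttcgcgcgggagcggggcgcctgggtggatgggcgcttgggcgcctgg
ZNF528: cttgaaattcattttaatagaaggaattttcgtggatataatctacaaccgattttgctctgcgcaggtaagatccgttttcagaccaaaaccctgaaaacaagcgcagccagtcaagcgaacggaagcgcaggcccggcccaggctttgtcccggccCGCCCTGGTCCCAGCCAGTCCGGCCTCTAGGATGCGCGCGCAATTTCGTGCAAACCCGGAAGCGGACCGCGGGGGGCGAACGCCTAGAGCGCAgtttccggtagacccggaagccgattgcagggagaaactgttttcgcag
ZNF561: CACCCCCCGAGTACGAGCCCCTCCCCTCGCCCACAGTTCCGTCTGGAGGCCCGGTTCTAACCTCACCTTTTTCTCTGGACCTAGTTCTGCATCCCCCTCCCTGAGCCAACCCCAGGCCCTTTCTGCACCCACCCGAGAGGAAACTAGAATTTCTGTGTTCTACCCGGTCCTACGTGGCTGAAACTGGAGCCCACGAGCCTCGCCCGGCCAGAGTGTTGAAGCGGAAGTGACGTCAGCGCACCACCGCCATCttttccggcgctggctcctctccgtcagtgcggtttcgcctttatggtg
EXOC3: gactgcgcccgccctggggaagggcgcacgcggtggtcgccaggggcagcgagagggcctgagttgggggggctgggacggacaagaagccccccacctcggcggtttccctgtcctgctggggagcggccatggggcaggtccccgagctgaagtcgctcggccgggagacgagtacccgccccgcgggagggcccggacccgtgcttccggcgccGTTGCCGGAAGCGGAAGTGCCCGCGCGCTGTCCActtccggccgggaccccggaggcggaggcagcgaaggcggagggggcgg
The starts were 112 bases apart in SMC5, 92 in ZNF528, 250 in ZNF561 and 33 in EXOC3, with the antisense start of SMC5-AS1 and EXOC3-AS1 taken from GENCODE 29. The windows held 37, 27, 20 and 36 CG dinucleotides in that order, and none held CCAAT or TATAAA on either strand.

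Promoter windows of the antisense genes themselves held more CG than RefSeq promoter windows at large. Windows of the other genes in the deposited table were not compared. RefSeq windows of the same 300 bases were matched for 209 of the 303 antisense symbols. Their median number of CG dinucleotides was 23, against 14 for all 27305 windows, and it was 27 in the 108 windows of antisense genes that start within 1000 bases of the sense start and 19.5 in the 102 arranged otherwise. CCAAT, or ATTGG on the other strand, occurred in 35.4% of antisense windows and 35.7% of all windows. TATAAA or TTTATA occurred in 5.26% of antisense windows and 11.95% of all windows. The 47 windows of antisense genes that rose had a median of 27 CG, CCAAT in 29.8% and TATAAA in 0%; the 10 of those that fell had 20, 50% and 0%; and the 112 with no call had 23.5, 37.5% and 7.14%. These matches describe letters in the windows and were not tested.

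Genes of RNA decay and termination, whose products limit the level of many antisense and promoter upstream RNAs, moved in both directions. Of 30 listed genes of the nuclear RNA exosome and its adaptors, 18 were tested, of which 3 rose and 6 fell, with a median log2 change of -0.08. EXOSC5, a subunit of the exosome core, had 181, 191 and 227 in knockdown libraries, against 816, 694 and 682 in scrambled libraries (log2 change -1.87, SE 0.12, limma adjusted p = 9.3e-08). MTREX, the helicase that feeds RNA to the nuclear exosome, had 546, 528 and 472 in knockdown libraries, against 1022, 1052 and 1127 in scrambled libraries (log2 change -1.05, SE 0.09, limma adjusted p = 1.01e-06). Both were lower in every knockdown library. EXOSC6, another core subunit, rose (log2 change 0.64, SE 0.10, limma adjusted p = 0.000127), as did ZFC3H1, an adaptor for polyadenylated nuclear RNAs (log2 change 0.41, SE 0.08, limma adjusted p = 0.000669). Of 16 listed genes of cytoplasmic decay, 7 were tested, all of nonsense-mediated decay or decapping; 5 fell and 1 rose with a median of -0.28; SMG5 and PATL1 fell by 0.43 and 0.47 on the log2 scale, and SMG6 rose by 0.61. Of 27 listed genes of transcription termination and the Integrator complex, 13 were tested, of which 5 fell and 1 rose with a median of -0.07; INTS10 fell by 0.95 and CSTF3 by 0.66, and PCF11 rose by 0.50. Of 15 listed genes of double-stranded RNA sensing, editing and processing, 3 were tested, and of these OAS3 rose by 0.54 and IFIH1, a sensor of long double-stranded RNA, by 1.43. The share of genes that changed was 51.9% over all transcripts tested, and the part of these genes in the rise of antisense RNAs was not tested.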

How the data were processed

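Total RNA libraries of 3 ABL1 knockdown and 3 scrambled samples were grouped by their titles. Per the submitters' processing notes, the tools were HISAT2 2.0.4 and HTSeq 0.6.1, and the build hg38; the sources used here do not give the annotation, the strand setting or the handling of reads that lie in more than 1 transcript. The deposited signal values are the authors' scaled square roots of counts per RefSeq transcript: each squared value is a whole number plus 3/8, times a step that is constant within a library. Squaring, dividing by the step and subtracting that offset gave whole reads within 0.05 for 100% of rows in each library. Reads times the library's step, relative to the geometric mean of the steps, are the normalized counts, on the authors' scale.

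Rows whose normalized count averaged 10 or more over the 6 libraries were tested with limma 3.58.1 (R 4.3.3, mean-variance trend) on log2(normalized count + 1). The test was two-sided, p-values were adjusted by the Benjamini-Hochberg method over the 8600 rows tested, and the threshold was 0.05; the test was checked on simulated data. A log2 change is knockdown minus scrambled on that scale and understates the change of rows with few reads. Where a symbol had several rows, each row entered; a pair used the most abundant row of its sense gene. Positions came from GENCODE 29, where 278 antisense rows matched by RefSeq identifier and 37 by symbol, and sequences from RefSeq (GRCh38.p14). Named antisense RNAs were the 12 largest rises and up to 12 falls of at least 2-fold past the threshold, all pairs with both transcripts changed, and the 10 most abundant rows; further names are marked in the text. The members, lists and rules were chosen with earlier results of these data known. Alternatives were another pseudocount, filter, scaling, voom weights, rows summed per gene, each library left out, and a replicate block; intervals cover counting error only.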

Additional observations from a re-analysis of the deposited data

How the results depend on the processing

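The count of 86 changed antisense rows stayed within 1.5 times, at 85 to 103, under both other pseudocounts, no filter, 3 other scalings, voom weights and summed rows, and the leave-one-out fits gave 71 to 82. With a minimum mean of 50, which left 78 antisense rows to test, it was 32, and 24 of these rose. Fewer transcripts tested also took the pairs with both changed to 4, against 19, and the pairs whose ratios did not overlap to 14, against 58. The pairs with both changed numbered 32 with libraries scaled to equal totals, and 10 to 13 when 1 library was left out; without knockdown library 2 there were 12, and without scrambled library 1 or 3 there were 10 each. Leaving out 1 library gave 57 to 62 changed sense rows and 3932 to 4146 changed transcripts in all. It gave 65 to 72 pairs with ratios apart, but that count cannot go below 58 when a library is removed, so it says nothing about stability. Of the 41 named antisense rows past the threshold, 31 kept it in all 6 of those fits and 10 lost it in at least 1. Both reversals came from summing rows of a gene: NUTM2B-AS1 to -0.0043 and the ABL1 row NM_005157 to -1.33. Over the named transcripts and all settings, 1279 values kept direction and call, 74 lost the call and 16 gained it. Same-numbered libraries of the groups correlated at 0.047, 0.077 and 0.077 after removing group means, so the numbers were not taken to pair the libraries; with the number as a replicate block, 77 antisense rows rose and 23 fell (100 in all), 25 pairs had both changed, and 4821 transcripts changed. Counting the nearest start of any transcript of the sense gene, an alternative chosen after seeing the data, placed 185 rows rather than 163 within 1000 bases. Depth limits the antisense rows: 70 of 316 had a mean count under 10, where a change of a few reads is a large fold.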

Other observations

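In all, 13 antisense symbols had 2 rows, and the rows did not always move together. THAP7-AS1 had log2 changes of 1.99 in NR_027051 (limma adjusted p = 0.00533) and 0.49 in NR_027052 (limma adjusted p = 0.38). PAX8-AS1, opposite the gene of a thyroid and kidney transcription factor, rose in NR_047570, with mean counts of 62.6 in knockdown libraries and 28.3 in scrambled libraries (log2 change 1.11, limma adjusted p = 0.00239). Its more abundant row NR_015377 had means of 194 in knockdown libraries and 172 in scrambled libraries (log2 change 0.17, limma adjusted p = 0.315). OTUD6B-AS1 fell in both rows, with log2 changes of -1.20 and -0.80. The difference between rows of a symbol was not tested, and reads in exons that both rows share may be counted on either.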
